A study of Saccharomyces cerevisiae with 12 samples.

Results

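The mRNAs described here encode the proteins of the small subunit of the cytosolic ribosome in budding yeast. All genes with the standard symbol RPS plus a number, with or without a paralog letter, were taken from the RNA-seq tables, which gave 56 of 6612 features. They encode 32 proteins, 24 of them from a pair of paralogs called A and B and 8 from a single gene, such as RPS12 and RPS13. RefSeq annotates all 56 under these names in its R64 genome, and the feature length equalled the annotated spliced coding length in all 56. The annotation gave an intron to 36 of them.

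The libraries compared were 3 of DUS KO, a haploid strain lacking all 4 dihydrouridine synthase genes (dus1Δ dus2Δ dus3Δ dus4Δ), and 3 of WT, the laboratory strain BY4741. DUS KO was dissected from tetrads of a cross between the double mutants FX-34, which lacks DUS1 and DUS2, and FX-42, which lacks DUS3 and DUS4, so it is a single strain and its differences from WT include any that segregated in that cross. Cells of both strains were frozen in mid-log phase, although the study's methods name a culture of OD 6 for RNA isolation. The growth phase at harvest is therefore not settled here. RNA-seq libraries were made from poly(A)+ RNA beside the libraries for dihydrouridine sequencing (D-seq), without the borohydride step and without selection of truncated cDNA. The series asks where dihydrouridine, a reduced form of uridine, lies in yeast RNA. The 6 D-seq libraries were not analysed here, and the labels do not say whether replicates were separate cultures, so p-values measure the spread between these libraries, which may be technical.

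Ribosomal protein genes are among the most highly transcribed in growing yeast, and their transcription follows nutrient signals through the TOR and protein kinase A pathways. The small subunit reads the codons of the mRNA. Its proteins sit either on the head, which closes over the mRNA and the tRNAs, or on the body and platform, which carry the entry and exit paths of the mRNA and much of the decoding centre. An ancient duplication of the whole genome left most of these proteins with paralogous genes, whose coding sequences often differ at few positions.

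Estimated counts summed to between 656162 and 5500084 in the DUS KO libraries and between 4336794 and 5652837 in the WT libraries. DUS KO replicate 3 was the shallowest library, and the RPS gene with the lowest estimated count there, RPS24B, had 57.4 estimated counts. DUS1 and DUS4 had 0 counts over the 3 DUS KO libraries, against 308 and 470 over the 3 WT libraries, DUS2 had 3 against 442, and DUS3, whose counts were not whole, had 123 against 323. As normalized counts (CPM), DUS3 had 10.8, 16.7 and 8.91 in DUS KO, against 29.5, 16.5 and 25.1 in WT, with overlap. Its estimated counts alone therefore do not show the loss of DUS3. The MATa genes MFA1, MFA2, STE2 and BAR1 were read in both strains, with 711 to 3309 counts in DUS KO and 414 to 3146 in WT, and after scaling their log2 fold changes (DUS KO over WT) ran from 0.68 to 1.62. Of the α-cell genes, MF(ALPHA)2 had 40 counts in DUS KO and 120 in WT, STE3 had 18 in each strain and MF(ALPHA)1 had 2 in DUS KO and 0 in WT. Over the RPS genes, log2 normalized counts of any pair of libraries correlated with a Pearson's r of 0.974 to 0.994, across genes that share a library and are not independent replicates. Across all features tested, r was 0.816 to 0.962.

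Levels were first compared between the genes, on the deposited TPM scale, which is normalized by effective length and by library. RPS30B was the most abundant RPS mRNA with 30827 TPM as the mean of the 6 libraries, followed by RPS31 with 18891 TPM and RPS28A with 18103 TPM. RPS9A with 74.8 TPM, RPS24B with 103 TPM and RPS7B with 116 TPM were the least abundant, which made a 412-fold range over the 56 genes. All 3 of the last are minor copies of a pair, so the range is much narrower once the paralogs of a protein are added together.

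Summed per protein, levels spanned 52.2-fold on the TPM scale. Rps30, a small basic protein of the body, was highest at 36218 ± 3668 TPM in DUS KO and 34102 ± 4917 TPM in WT (SD, n = 3 each). Rps31, made as a fusion to ubiquitin, followed at 17945 ± 2782 TPM in DUS KO and 19837 ± 2193 TPM in WT (SD, n = 3 each), and Rps28, a head protein by the mRNA exit, at 19232 ± 1314 TPM in DUS KO and 18439 ± 3181 TPM in WT (SD, n = 3 each). All 32 proteins take part in the same particle in single copy, yet their mRNAs were not equally abundant at this scale.

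Near the other end stood Rps0, of the body, with 855, 690 and 834 TPM in DUS KO, against 751, 744 and 801 TPM in WT. Rps15, a head protein with a tail that reaches the decoding centre, had 760 ± 152 TPM in DUS KO and 920 ± 91.0 TPM in WT (SD, n = 3 each). Most steps in this order were small, since the ranges over the 6 libraries overlapped for 28 of the 31 pairs of neighbours. The 3 that did not were Rps30 and Rps31, Rps19 and Rps20, and Rps6 and Rps2.

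**Figure D1:**
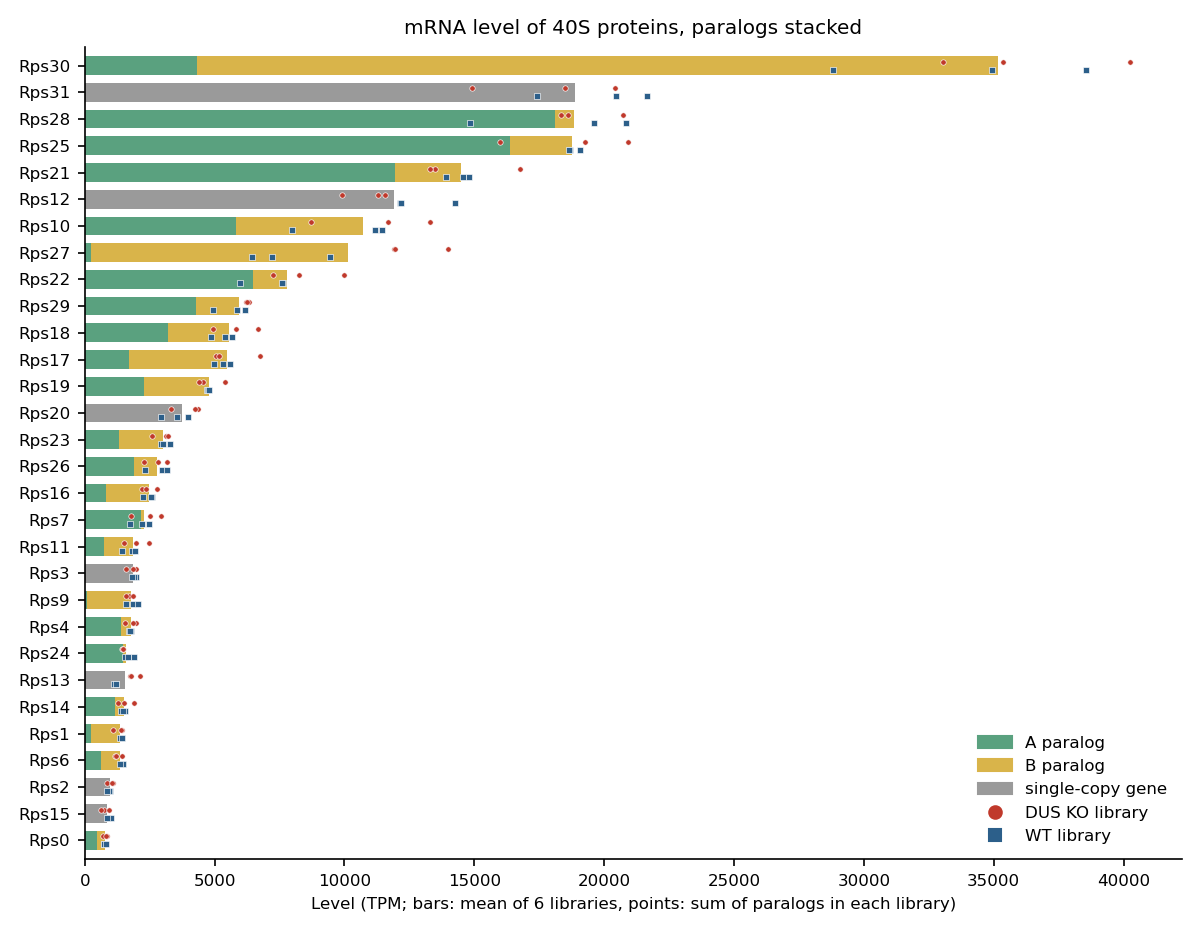
Level of small subunit proteins in TPM, for those described here, with bars for the mean of 6 libraries split into the A paralog, the B paralog or a single-copy gene, and points for the summed level in each DUS KO library (circles) and each WT library (squares). Levels run from 779 TPM for Rps0 to 35160 TPM for Rps30, and the circles lie fully to the right of the squares for Rps27, Rps13 and, narrowly, Rps29, and fully to the left for Rps12 and Rps24.

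Short coding sequences had the higher levels. Over the 32 proteins, Spearman's rho between level (TPM) and mean coding length was -0.70, and over the 56 genes it was -0.52. Across the 6488 features with a level above 0 in the files it was -0.43, so the sign is that of the table as a whole. The effective length used for TPM is shorter than the coding length by an amount that weighs most on short features, and the range over proteins was 39.6-fold when estimated counts were divided by the coding length instead. The median over the 14 head proteins was 5524 TPM and that over the 18 body and platform proteins 1818 TPM, as means of 6 libraries. The 8 single-copy proteins had a median of 1693 TPM, against 2913 TPM for the 24 duplicated ones, and their ranges overlapped.

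In 21 of 24 pairs the same paralog was the more abundant in all 6 libraries, and the exceptions were RPS6, RPS10 and RPS19. The A paralog was the major one in 14 pairs and the B paralog in 10. The share of a paralog is given here as its percentage of the pair's TPM, which does not depend on how libraries are scaled to each other. The median share of the major paralog was 77.8%, and in 5 pairs it was above 90%.

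RPS27 was the most unequal pair. The A share was 2.23, 1.38 and 1.72% in the DUS KO libraries, against 3.09, 3.51 and 2.51% in the WT libraries, so nearly all mRNA for this zinc finger protein came from RPS27B. RPS28 leaned the other way, with an A share of 95.1, 95.4 and 96.03% in DUS KO and 96.7, 97.7 and 95.6% in WT. RPS9, whose protein takes part in the accuracy of decoding, had an A share of 4.57 ± 0.27% in DUS KO and 3.86 ± 0.39% in WT (SD, n = 3 each). RPS7 had an A share of 95.6, 94.1 and 95.4% in DUS KO and 94.9, 95.9 and 92.7% in WT, and RPS24, the remaining pair above 90%, had 94.4 ± 1.19% in DUS KO and 92.8 ± 1.83% in WT (SD, n = 3 each).

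The most balanced pairs were RPS19, RPS6, RPS10 and RPS23. RPS19, the yeast counterpart of the gene most often mutated in human Diamond-Blackfan anaemia, had an A share of 48.5 ± 0.81% in DUS KO and 47.6 ± 3.66% in WT (SD, n = 3 each). RPS6, whose protein is phosphorylated in response to nutrients, had 45.9, 44.9 and 45.6% in DUS KO and 45.9, 46.4 and 51.3% in WT. The A shares of RPS10 averaged 53.5 ± 3.65% in DUS KO and 54.1 ± 4.40% in WT, and those of RPS23 averaged 43.2 ± 2.14% in DUS KO and 43.2 ± 0.30% in WT (SD, n = 3 each). In none of these 4 pairs did the strains separate.

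How well the reads can tell paralogs apart differs from pair to pair, and the coding sequences show by how much. Identity within the 24 pairs ran from 84.3% (RPS27) to 99.2% (RPS6), and the longest stretch without a difference was 23 nt in RPS27 and 311 of 711 nt in RPS6. The 3 pairs printed below are RPS27 and RPS28, the most unequal pairs with B and with A in the lead, and RPS29, one of the pairs whose share separated the strains. Sequences are the spliced coding sequences from RefSeq R64, 5′ to 3′ on the coding strand, with capitals at the positions that differ from the paralog.

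RPS27A (YKL156W) lies at chrXI:158613-159212 on the plus strand and RPS27B (YHR021C) at chrVIII:147871-148669 on the minus strand, and both spans include an intron that is left out of the sequence. The pair differed at 39 of 249 positions, and no identical stretch was longer than 23 nt.
RPS27A: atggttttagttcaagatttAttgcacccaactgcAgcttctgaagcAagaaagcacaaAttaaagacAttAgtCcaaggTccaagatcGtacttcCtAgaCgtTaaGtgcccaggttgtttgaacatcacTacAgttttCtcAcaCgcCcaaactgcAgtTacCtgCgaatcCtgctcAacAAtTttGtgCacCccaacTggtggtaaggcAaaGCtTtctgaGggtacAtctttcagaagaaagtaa
RPS27B: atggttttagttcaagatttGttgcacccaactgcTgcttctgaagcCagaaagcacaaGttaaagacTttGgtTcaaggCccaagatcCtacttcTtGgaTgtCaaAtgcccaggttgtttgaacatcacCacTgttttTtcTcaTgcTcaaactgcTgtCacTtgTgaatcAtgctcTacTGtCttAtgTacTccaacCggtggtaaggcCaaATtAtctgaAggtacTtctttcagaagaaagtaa
Of the 83 codons, 36 differed and 1 of these changed the residue.

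RPS28A (YOR167C) lies at chrXV:648804-649007 on the minus strand and RPS28B (YLR264W) at chrXII:673131-673334 on the plus strand, both without an intron. This pair differed at 24 of 204 positions, with 3 of them in 1 codon near the start.
RPS28A: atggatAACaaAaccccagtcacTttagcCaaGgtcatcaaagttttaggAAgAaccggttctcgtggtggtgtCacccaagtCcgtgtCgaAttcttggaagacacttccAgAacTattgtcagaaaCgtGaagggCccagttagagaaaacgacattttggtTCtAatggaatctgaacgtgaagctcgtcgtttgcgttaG
RPS28B: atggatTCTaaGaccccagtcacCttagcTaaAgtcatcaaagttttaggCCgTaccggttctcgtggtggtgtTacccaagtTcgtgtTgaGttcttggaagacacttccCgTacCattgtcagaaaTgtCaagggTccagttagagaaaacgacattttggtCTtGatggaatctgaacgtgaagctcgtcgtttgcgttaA
Here 19 of 68 codons differed and 1 changed the residue, and the counts of both genes were whole in all 6 libraries.

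RPS29A (YLR388W) lies at chrXII:898651-898821 on the plus strand and RPS29B (YDL061C) at chrIV:340628-340798 on the minus strand, likewise without an intron. They differed at 14 of 171 positions.
RPS29A: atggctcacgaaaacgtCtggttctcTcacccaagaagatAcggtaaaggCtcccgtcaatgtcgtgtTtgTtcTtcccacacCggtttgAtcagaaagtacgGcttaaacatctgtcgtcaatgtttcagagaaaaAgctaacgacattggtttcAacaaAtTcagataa
RPS29B: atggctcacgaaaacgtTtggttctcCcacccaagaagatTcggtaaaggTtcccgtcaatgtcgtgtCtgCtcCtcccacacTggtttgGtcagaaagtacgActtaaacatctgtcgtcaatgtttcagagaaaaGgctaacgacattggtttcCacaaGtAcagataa
Of 57 codons, 14 differed and 5 of these changed the residue, so the small zinc-binding head protein Rps29 is not the same from both genes. By contrast, 9 of the 22 pairs of equal length had no residue difference at all.

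Estimated counts that are not whole numbers mark reads that were divided between features. They occurred in 46 of the 56 RPS genes, and in 22 pairs both members had them while the sum of the pair was whole in all 6 libraries, within 0.02 or the last written digit. In these 22 pairs the sum is therefore firmer than the split, and the share of RPS6 rests on only 6 distinguishing positions. Of the 24 pairs, only RPS28 had whole counts for both members in every library. RPS27A shared reads with the feature YKL156C-A instead of its paralog, and the program and its use of strand are not given in the sources used here. With YKL156C-A added to RPS27A, the A share of the counts was 2.17 ± 0.26% in DUS KO and 3.71 ± 1.13% in WT (SD, n = 3 each), still without overlap.

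The paralog shares were then compared between the strains. The A share did not overlap between the 3 DUS KO and the 3 WT libraries in 6 of 24 RPS pairs, beside 19.3% of all 57 pairs of RPS and RPL genes (RPL, the large subunit) and 5 of the 33 RPL pairs (15.2%). It was lower in DUS KO for RPS18, RPS29 and RPS27 and higher for RPS1, RPS4 and RPS9. Each of the 6 had p = 0.1 in a two-sided exact permutation test, the smallest that 3 against 3 libraries can give, and 0.518 after Benjamini-Hochberg adjustment over the 57 pairs, so none passed. Without WT replicate 3 the count was 10, but a pair separates more easily with fewer libraries. Of the 33 RPL pairs, RPL1, RPL4, RPL9, RPL14, RPL17, RPL19, RPL21, RPL22, RPL37 and RPL41 then did not overlap. The counts of none of these 6 pairs were whole for both members.

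RPS18, whose protein lies in the head near the interface with the large subunit, had the largest difference. Its A share was 53.6, 56.9 and 54.7% in DUS KO, against 57.6, 62.0 and 61.1% in WT, a difference of -5.17 percentage points. In RPS29 it was 67.7, 72.3 and 68.7% in DUS KO, against 73.7, 74.6 and 73.8% in WT, a difference of -4.47 points. The WT libraries lay close together in RPS29, and the nearest DUS KO library was replicate 2.

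In the other direction, the A share of RPS4, which encodes a body protein, was 80.9, 80.2 and 82.3% in DUS KO, against 78.4, 79.0 and 77.4% in WT, a difference of 2.85 points. RPS1, at the mRNA exit, had 22.2, 18.9 and 19.3% in DUS KO, against 18.1, 16.3 and 17.8% in WT, a difference of 2.71 points. Over all 24 pairs the median size of the difference was 1.17 points, so both strains drew on the same major copies.

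**Figure D2:**
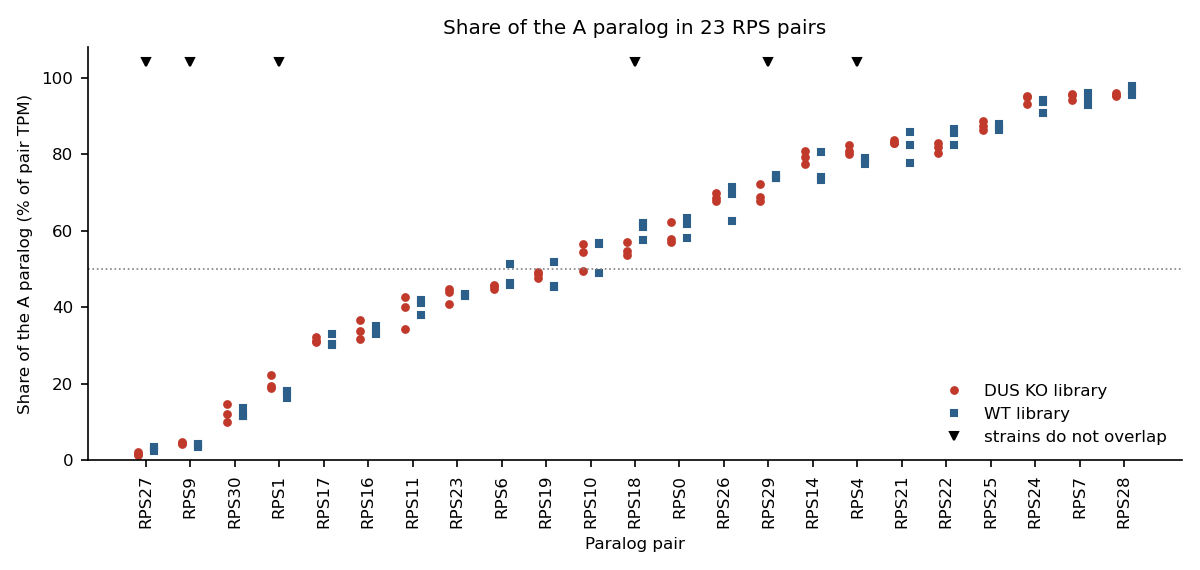
Share of the A paralog, in percent of the pair's TPM, in the pairs described here, ordered by the mean of 6 libraries, with circles for DUS KO libraries left of squares for WT libraries. A triangle marks the 6 pairs whose strains do not overlap (RPS27, RPS9, RPS1, RPS18, RPS29 and RPS4), and the dotted line marks 50%.

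Whether any RPS mRNA differed in abundance between the strains was tested on the estimated counts. All 56 RPS genes were among the 5884 features that passed a minimum count. With a threshold of 0.05 on the adjusted p of edgeR's quasi-likelihood F-test, Benjamini-Hochberg adjusted over all features tested, 0 of 56 RPS genes were called, and 0.085% of all features tested (5 of 5884) were. The lowest adjusted p of an RPS gene in that test was 0.309 (RPS24B). DESeq2 called 3 of 56, all lower in DUS KO, where the lower calls were 1.89% of the 2006 features to which it gave an adjusted p, and limma-voom called 0.

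At an unadjusted p under 0.05 the edgeR test gave 16 RPS genes lower in DUS KO, where the share of all features tested was 4.93%, and 1 higher (RPS13), where it was 3.33%. With limma-voom these counts were 21 and 1, beside 271 and 329 of all 5884 features tested, and with DESeq2 19 and 2 (276 and 203). They were 7 and 4 with counts scaled by library totals alone (105 and 442 of all features tested). With a replicate block they were 8 and 0 (220 and 197), and with limma on log2(TPM + 1) 0 and 3 (53 and 721). The lower genes at this threshold thus depend on the scale, and so does the share of all features. Features at least as high in mean normalized count as the lowest RPS gene were 606 in all, with the RPS genes among them. Of these, 18.5% were lower at this threshold and 5.45% higher.

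Without a threshold, 51 of the 56 RPS genes had a log2 fold change (DUS KO over WT) below 0, as did 51.6% of all features tested and 69% of the 606 more abundant ones, whereas on the TPM scale described below 27 of 56 did. The median was -0.28 over the RPS genes, -0.15 over the 606 more abundant features and -0.02 over all features tested. Genes of the large subunit gave similar figures, with 71 of 76 below 0 and a median of -0.30 (33 of 76 and 0.02 on the TPM scale). The 3 DUS KO libraries lay fully below the 3 WT libraries in 24 of the 56 RPS genes (7.68% of all features tested and 20.5% of the 606) and fully above in 2, RPS13 and RPS22B (7.83% and 8.09%). The TPM scale turned this tally round, with 3 RPS genes fully below (RPS6A, RPS12 and RPS24A; 2.01% of all features tested) and 5 fully above (RPS13, RPS22B, RPS27B, RPS28B and RPS29B; 18.6%).

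This difference was carried unevenly by the WT libraries. The median normalized count of the RPS genes was 1949, 1954 and 1993 CPM in DUS KO, against 2483, 2780 and 2008 CPM in WT, so the DUS KO libraries lay within a narrow band and WT replicate 3 close to them. Without WT replicate 3, 40 RPS genes were lower at an unadjusted p under 0.05 (6.96% of all features tested), 45 lay fully below (15.2% of all features tested) and the median was -0.37, with 0 called at the adjusted threshold by edgeR. Without WT replicate 2, the WT library with the highest values, 5 were lower at that unadjusted threshold (254 of 5989 features tested) and the median was -0.20. Left out in turn, DUS KO replicates 1 and 2 left 8 genes each (169 of 5965 and 186 of 5977 features tested). Without DUS KO replicate 3 there were 12 (217 of 6000), and without WT replicate 1 there were 7 (314 of 5980).

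**Figure D3:**
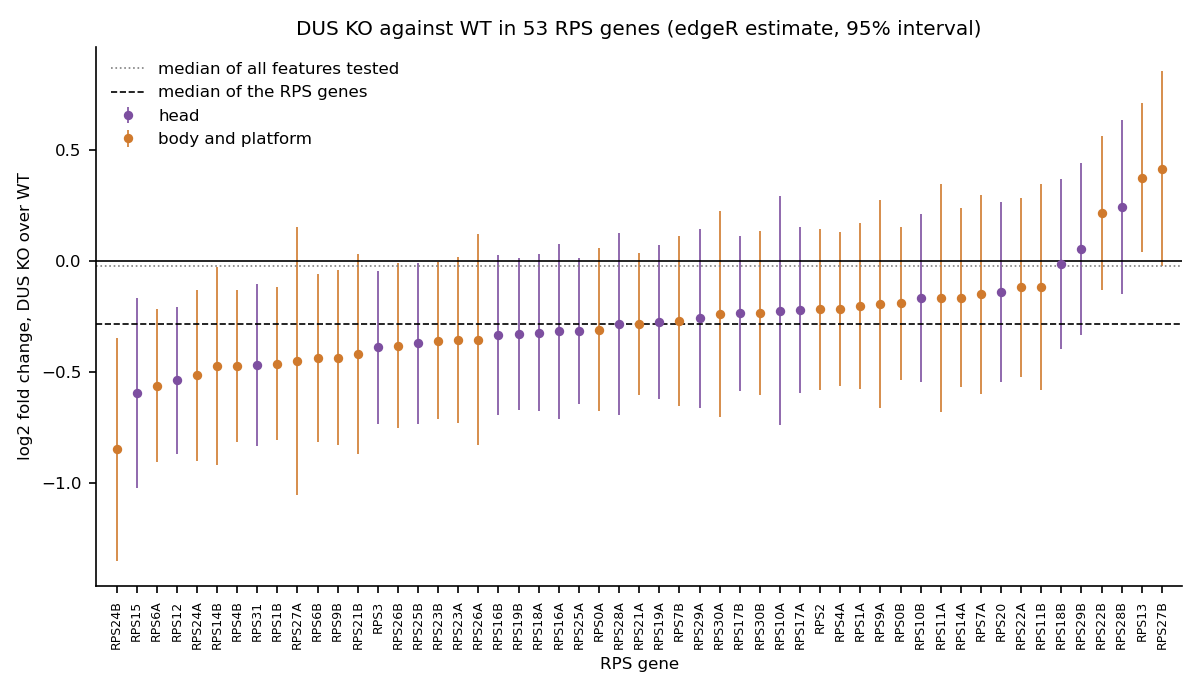
Log2 fold change (DUS KO over WT) of the RPS genes described here in ascending order, as edgeR's estimate with its 95% interval, in purple for head proteins and orange for body and platform proteins. Points run from -0.85 (RPS24B) to 0.42 (RPS27B), all but the 5 on the right lie below 0, and most intervals include 0.

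RPS24B encodes the minor copy of a body protein needed for processing of the 18S rRNA precursor. It had 77.1, 128 and 84.7 CPM in DUS KO, against 146, 173 and 207 CPM in WT. Every DUS KO library lay below every WT library in CPM, with a wide spread in both strains, but on the TPM scale DUS KO replicate 2 (103 TPM) was above WT replicate 1 (101 TPM). The log2 fold change was -0.85 (standard error 0.23, unadjusted p = 0.0030, adjusted p = 0.309 by edgeR's quasi-likelihood F-test, Benjamini-Hochberg adjusted), and DESeq2 called it with an adjusted p of 0.0485. Its reads were divided with RPS24A, which carries most of the pair and had 1457, 1702 and 1658 CPM in DUS KO, against 2106, 2762 and 2009 CPM in WT, also without overlap. The log2 fold change of RPS24A was -0.51 (standard error 0.18), and that of the summed pair -0.54.

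RPS12, a single-copy gene for a protein at the beak of the head, was one of the most abundant RPS mRNAs. It had 12836, 15321 and 12575 CPM in DUS KO, against 18786, 20080 and 20243 CPM in WT. The libraries separated by strain, and the spread was the smaller in WT. The log2 fold change of RPS12 was -0.54 (standard error 0.15, unadjusted p = 0.0039, adjusted p = 0.311 by edgeR's quasi-likelihood F-test, Benjamini-Hochberg adjusted; 0.0344 by DESeq2), and its counts were whole in every library.

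RPS6A had 1312, 1232 and 1208 CPM in DUS KO, against 1846, 1963 and 1724 CPM in WT, without overlap. Its log2 fold change was -0.56 (standard error 0.16, unadjusted p = 0.0038, adjusted p = 0.311 by edgeR's quasi-likelihood F-test, Benjamini-Hochberg adjusted; 0.0201 by DESeq2). The paralog RPS6B, which is nearly identical, had 1545, 1512 and 1442 CPM in DUS KO, against 2179, 2267 and 1636 CPM in WT, and a log2 fold change of -0.43. Since only 6 positions separate these genes, the sum is the safer value, and for the summed pair it was -0.50.

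The single-copy gene RPS15 had 848, 805 and 1154 CPM in DUS KO, against 1367, 1671 and 1192 CPM in WT. In CPM the strains did not overlap, although DUS KO replicate 3 and WT replicate 3 nearly met, while on the TPM scale they overlapped and the log2 fold change was -0.29. In edgeR's fit it was -0.60 (standard error 0.20, unadjusted p = 0.0101, adjusted p = 0.426 by edgeR's quasi-likelihood F-test, Benjamini-Hochberg adjusted).

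Other genes lower at an unadjusted p under 0.05 had log2 fold changes between -0.47 and -0.36, and no alternative turned the sign of any of the 16. On the head they included RPS31, RPS3, which lines the mRNA entry, and RPS25B, whose protein is needed for initiation at some viral internal ribosome entry sites. On the body and platform they included RPS14B, RPS4B, RPS1B, RPS9B, RPS26B, at the mRNA exit, and RPS23B, whose protein reaches into the decoding centre. Of those named, RPS14B and RPS9B overlapped between the strains in CPM and the rest did not, whereas on the TPM scale every one of them overlapped. The adjusted p over all 16 ran from 0.309 to 0.591 by edgeR's quasi-likelihood F-test, Benjamini-Hochberg adjusted.

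RPS13 stood on the other side. It encodes a body protein that binds the central domain of 18S rRNA, from a single gene with an intron. It had 2595, 2465 and 2435 CPM in DUS KO, against 2000, 1961 and 1817 CPM in WT. Both strains were tight, and the lowest DUS KO library was above the highest WT library. The log2 fold change was 0.38 (standard error 0.16, 95% interval 0.04 to 0.71, unadjusted p = 0.0311, adjusted p = 0.550 by edgeR's quasi-likelihood F-test, Benjamini-Hochberg adjusted). On the TPM scale it had 1899 ± 218 TPM in DUS KO and 1178 ± 53.1 TPM in WT (SD, n = 3 each), again without overlap, and its counts were whole throughout.

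The remaining 4 genes with a log2 fold change above 0 were the B copies RPS27B, RPS28B, RPS22B and RPS29B, whereas all 24 A copies were below 0 (10 of 24 on the TPM scale). RPS27B had 6721, 7966 and 8899 CPM in DUS KO, against 5498, 7647 and 4532 CPM in WT. WT replicate 2 lay within the DUS KO range, and the log2 fold change was 0.42 (standard error 0.20, unadjusted p = 0.0614), with 0.26 when WT replicate 3 and 0.65 when WT replicate 2 was left out. On the TPM scale the summed Rps27 mRNA did not overlap, with 12616 ± 1197 TPM in DUS KO and 7690 ± 1562 TPM in WT (SD, n = 3 each).

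RPS28B had 451, 442 and 359 CPM in DUS KO, against 392.1, 306 and 362 CPM in WT, with overlap, and a log2 fold change of 0.25 (standard error 0.18, and 0.15 without WT replicate 2). Its mRNA is known for a stem-loop through which Rps28 protein and the decapping factor Edc3 speed its own decay. RPS22B had 1737, 1690 and 1698 CPM in DUS KO, against 1432, 1627 and 1346 CPM in WT. The DUS KO libraries of RPS22B were all higher, and its log2 fold change was 0.22 (standard error 0.16, unadjusted p = 0.198). RPS29B had 683, 695 and 747 CPM in DUS KO, against 715, 776 and 552 CPM in WT, so the strains overlapped, and its log2 fold change was 0.06 (-0.077 without WT replicate 3).

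**Figure D4:**
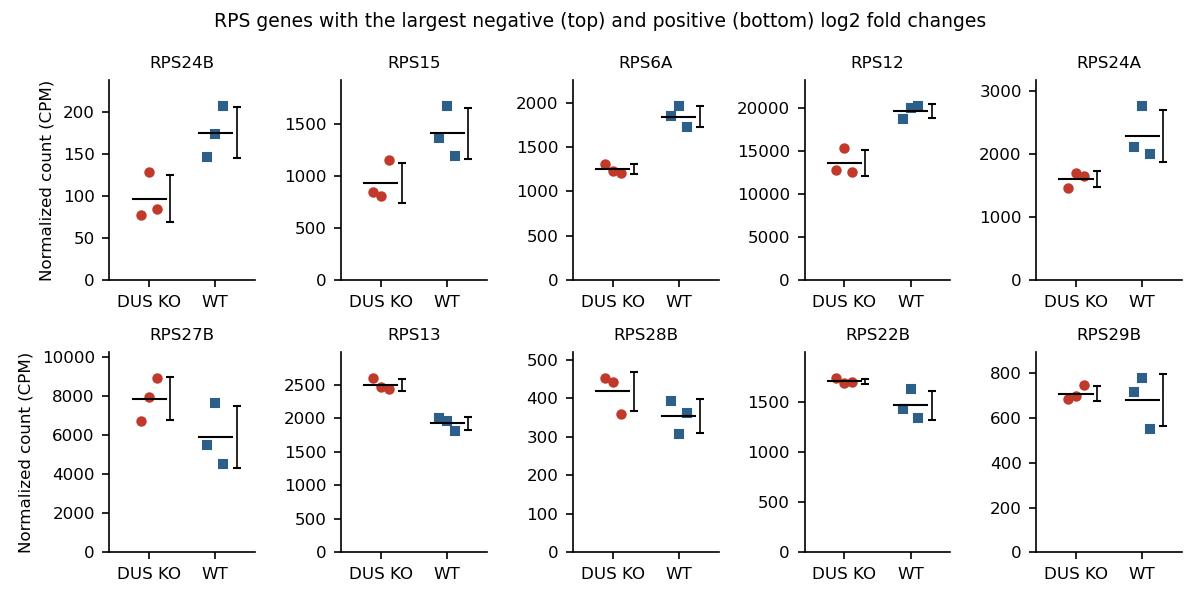
Normalized count (CPM) of the 5 RPS genes with the largest negative (top) and the 5 with the largest positive log2 fold changes (bottom) in each library, with DUS KO (circles) left of WT (squares), the mean as a line and the SD as a bar beside it (n = 3 each). The strains separate in every gene of the top row and in RPS13 and RPS22B below.

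The groups into which the RPS genes can be divided had medians close to each other. The median log2 fold change was -0.28 over the 22 head genes and -0.30 over the 34 body and platform genes, with 5 and 11 lower at an unadjusted p under 0.05. It was -0.27 over the 36 genes with an intron and -0.33 over the 20 without. A paralogs had a median of -0.28 and B paralogs of -0.33, with 3 and 9 lower at that threshold, and the 8 single-copy genes had a median of -0.30. At that threshold 4.93% of all features tested and 18.5% of the 606 more abundant ones were lower. With limma on log2(TPM + 1) 0 RPS genes were. No test was made between these groups, and on the TPM scale their medians lay between -0.02 (B paralogs) and 0.05 (head genes and A paralogs).

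The study lists a dihydrouridine site in the mRNA of 14 RPS genes. Their log2 fold changes spanned the whole range, from -0.85 (RPS24B) to 0.42 (RPS27B), with a median of -0.24, 11 below 0 and 6 lower at an unadjusted p under 0.05. In the 42 other RPS genes the median was -0.30, with 40 below 0 and 10 lower at that threshold. Of all features tested, 51.6% were below 0 and 4.93% were lower at that threshold. The study calls its number of mRNA sites a lower bound, because little of the transcriptome had enough coverage. The 42 may therefore hold unlisted sites. On the TPM scale the medians were 0.07 for the 14 and 0.01 for the 42. Among the 4 B copies above 0, RPS27B, RPS28B and RPS29B are in the list and RPS22B is not.

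The genes that assemble the small subunit or regulate the RPS genes were read from the same fit. ASC1, which encodes the remaining small subunit protein (the yeast RACK1), had 4770, 3910 and 5371 CPM in DUS KO, against 6047, 5254 and 4019 CPM in WT, with overlap and a log2 fold change of -0.13 (0.19 on the TPM scale). Of 15 assembly factors and escorts, from YAR1, the escort of Rps3, and TSR2, the escort of Rps26, to the endonuclease NOB1, 0 had an unadjusted p under 0.05 in edgeR's test, 11 were below 0 and the median was -0.30 (8 of 15 and -0.0026 on the TPM scale). All 10 transcription regulators listed (among them RAP1, FHL1, IFH1 and SFP1) were below 0, with a median of -0.61 (8 of 10 and -0.17 on the TPM scale). Of all features tested, 51.6% were below 0, and at an unadjusted p under 0.05 4.93% were lower and 3.33% higher. Several of the 10 regulators had low counts, such as STB3 with 1.01, 3.22 and 4.46 CPM in DUS KO, against 3.21, 3.63 and 8.75 CPM in WT. The most abundant of them, HMO1, had a log2 fold change of -0.24. Of these 10, only CRF1, a corepressor of ribosomal protein genes under TOR, had an unadjusted p under 0.05 (0.0426), with 3.87, 4.51 and 1.49 CPM in DUS KO, against 10.8, 14.3 and 5.61 CPM in WT. Its adjusted p was 0.584 by edgeR's quasi-likelihood F-test, Benjamini-Hochberg adjusted.

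The sign of the RPS difference depended on the scale on which libraries were made comparable. On log2(TPM + 1) the median log2 fold change was 0.031 over the RPS genes, with 29 above and 27 below 0, and 0.22 over all features tested. With estimated counts scaled by library totals alone the medians were -0.10 and 0.16. Relative to the median of all features tested, the RPS median was -0.26 with edgeR's TMM scaling. It was below that median in all 20 ways of processing, by -0.39 to -0.19, but these all process the same libraries. With TMM scaling, the 606 features at least as high in mean normalized count as the lowest RPS gene had a median of -0.15. TPM has the same sum in every library, and the features RPL41A and RPL41B, very short genes of the large subunit, took 7.58, 15.97 and 9.37% of it in DUS KO, against 20.1, 20.9 and 24.5% in WT. With these 2 features removed and TPM rescaled, the RPS median was -0.16 and that of all features tested 0.08.

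Together the 56 RPS genes took 20.8 ± 2.09% of TPM in DUS KO and 19.9 ± 1.57% in WT (SD, n = 3 each). Without RPL41A and RPL41B they took 23.3 ± 1.31% in DUS KO and 25.4 ± 1.30% in WT (SD, n = 3 each). Of the estimated counts they took 21.2, 20.03 and 20.4% in DUS KO, against 22.5, 22.9 and 20.6% in WT, where WT replicate 3 lay within the DUS KO range. The strains overlapped on all 3 of these scales.

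**Figure D5:**
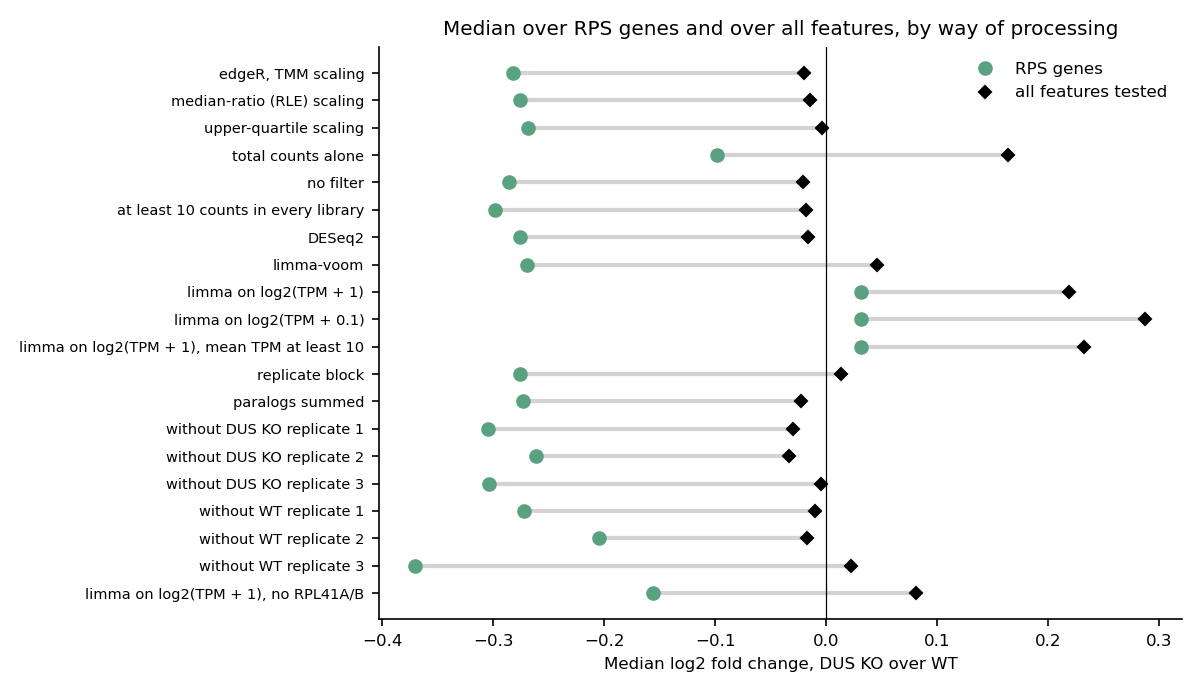
Median log2 fold change (DUS KO over WT) over the RPS genes (circles) and over all features tested (diamonds) under each of the 20 ways of processing. The circle lies left of the diamond in all 20, and the pair moves to the right on the TPM scale. The RPS median is 0.031 there, or -0.16 when TPM is rescaled without RPL41A and RPL41B.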

How the data were processed

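RNA-seq libraries of DUS KO and WT, 3 each, were analysed. The authors deposited 1 table per library, which gives the estimated count and TPM of 6612 features with their lengths. According to the study, reads were trimmed with bbduk, collapsed on the molecular identifier and aligned with bbmap (build sacCer3, per the labels). The sources used here do not name the quantification program. The deposited estimated counts are unnormalized, and the deposited TPM values are relative to effective length and to the library's total. Estimated counts were rounded to whole numbers, filtered with filterByExpr (5884 features kept, 728 removed), scaled by TMM (factors 0.878 to 1.09) and tested with edgeR 4.0.16 (R 4.3.3), quasi-likelihood with robust dispersion, Benjamini-Hochberg adjustment and a threshold of 0.05. Normalized counts (CPM) are relative to TMM-scaled library totals. The biological coefficient of variation was 37.5%. The test was checked on simulated data. Paralog shares were compared by exact permutation tests, and Spearman's rho was computed with scipy 1.17.1. Paralogs of equal length were compared position by position, and those of unequal length were aligned with Biopython 1.88.

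Alternatives were other scalings and filters, DESeq2 1.42.0, limma 3.58.1 (voom and log2 TPM), summed paralogs, a replicate block and leaving out each library. TPM without RPL41A and RPL41B was added after seeing the data. Lists covered head, body and platform, introns, the study's dihydrouridine sites, assembly factors, transcription regulators and mating type. Genes named were the 3 highest and lowest in level, the 5 of largest change in each direction, those with an unadjusted p under 0.05, and the most balanced, most unequal and most different pairs. The members and lists were chosen with earlier results of these data known. The printed sequences show 3 of the named pairs. Some members were counted in the totals but are not reported by name.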

Additional observations from a re-analysis of the deposited data

How the results depend on the processing

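Over the 21 RPS genes chosen for their fold change or unadjusted p, 379 of 383 values under the alternatives kept direction and side of the threshold. The exceptions were RPS12, RPS24B and RPS6A, which DESeq2 called, and RPS29B, whose log2 fold change was -0.077 without WT replicate 3 and ranged up to 0.16 with another library left out; the cause was not tested. The number of RPS genes called was 3 with DESeq2 and 0 under every other alternative, leaving out any library included. The number of features called was 5, and it was 3 with total counts alone, 1 with at least 10 counts in every library, 58 with DESeq2, 0 with limma-voom, 1 and 2 with limma on log2 TPM at pseudocounts of 1 and 0.1, 1 without RPL41A and RPL41B, and 1 to 12 with a library left out. Deviations of same-numbered libraries from their strain means correlated at 0.03, -0.04 and -0.07, and those of differently numbered libraries at -0.05 to 0.07. These values cannot settle whether same-numbered libraries were prepared together. With a replicate block 3 features and 0 RPS genes were called, and the RPS median was -0.28. The A share of 8 of the 24 RPS pairs differed in one direction in all 3 numbered comparisons. Of the 33 RPL pairs, so did RPL4, RPL7, RPL13, RPL14, RPL19, RPL21, RPL22, RPL31, RPL34, RPL36, RPL37 and RPL43. The median of the RPS genes was -0.10 with total counts and -0.37 to -0.20 with a library left out. It was 0.031 with each of the 3 TPM settings that keep RPL41A and RPL41B, and -0.16 without them. The share of RPS genes in TPM differed by 0.88 percentage points between DUS KO and WT, by -2.13 without RPL41A and RPL41B, and by -0.18 to 1.90 with a library left out. The range over proteins was 39.6-fold with counts per kb. Of RPS pairs whose A share did not overlap, 0 remained among pairs with whole counts, of which there is 1. With a library left out 7 to 10 were found, but a pair then separates more easily, and RPL pairs were gained as well.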
